A study of Homo sapiens with 30 samples.

Results

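RCC4 cells that lack VHL were compared with RCC4 cells to which VHL had been returned, both after 18 h of hypoxia. RCC4 is an established line from a human renal carcinoma. The comparison took the 4 arrays whose labels give RCC4, either VHL genotype, 18 h of hypoxia and no reoxygenation, out of 30 arrays in the study: 2 of VHL-null cells and 2 of VHL-restored cells, paired by replicate number. The cells grew as monolayers and were held below 0.01% oxygen in an anoxic incubator, and total RNA was hybridised to a custom Affymetrix array, with 1 array for each RNA sample. The 4 RCC4 arrays at 0 h, 2 of each genotype, gave the same comparison without hypoxia. The labels do not say how VHL was returned, whether either line is 1 clone, or whether replicates came from separate cultures, so the p-values measure the spread between these arrays, which may be technical. Replicate 1 and replicate 2 were also placed in different array sets, and each set holds both genotypes. The sample titles do not name the array set, and the source of this assignment is not given here.

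VHL is the substrate receptor of a ubiquitin ligase. In oxygen, prolyl hydroxylases of the EGLN family mark the alpha subunits of the hypoxia-inducible factors (HIF), and VHL binds the marked subunits and sends them for degradation. The hydroxylases need oxygen, so cells with VHL also build up HIF when oxygen is withdrawn, and cells without VHL hold HIF in either state. HIF binds DNA with its partner ARNT at the core sequences ACGTG and GCGTG and raises genes of glycolysis, mitochondrial turnover, vessel growth and acid handling. Loss of VHL is the defining lesion of clear cell renal carcinoma.

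The values are array intensities as the authors deposited them. They were compared as log2(intensity + 16), centred on each array's median over the 7614 tested genes, and each difference below is VHL-null minus VHL-restored on that scale, with 2 arrays per genotype. Its standard error (SE) comes from limma's fit of the 8 arrays at 0 h and 18 h, which share one estimate of the spread, so it is not the spread of the 18 h arrays alone. A gene was called when limma's adjusted p was under 0.05 with the replicate number as a block. The median intensity was 156 on both arrays of replicate 1, and 213 and 222 on the VHL-null and VHL-restored arrays of replicate 2. The probe set for VHL was too dim to be tested and did not check the labels: its intensity was 14 and 76 without VHL and 11 and 2 with VHL returned. The genotype of each array is therefore as labelled. Of the renal epithelial markers, 2 of the 4 on the array exceeded the array median on all 4 arrays. Their summed intensity was 1011 and 1353 in VHL-null cells and 947 and 1342 in VHL-restored cells. Of the fibroblast markers, 3 to 4 of 8 exceeded the median on each array, with COL3A1 and LUM null on all 4, and the summed intensity was 1057 and 1580 against 1084 and 1268. Of the endothelial markers, 6 of 8 did so on each array, with TEK null on all 4, and the sums were 2132 and 2408 against 2112 and 2331. Of the leukocyte markers, 2 of 6 did so on each array, with ITGAM null on all 4, and the sums were 659 and 1123 against 599 and 914. No marker that was tested was called between the genotypes, and the part of other cell types in the results was not tested.

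After 18 h of hypoxia, 447 of the 7614 tested genes differed between the genotypes, which is 5.87%. In VHL-null cells 245 genes were higher (3.22%) and 202 were lower (2.65%). The differences were mostly small, with a median of 0.54 among the higher genes and -0.56 among the lower genes, and 25 higher and 26 lower genes reached 2-fold. All 447 had the same direction in both pairs. The calls were made from these same pairs, so this is not separate evidence for them. Of all tested genes, 29.6% were positive in both pairs and 37.7% negative in both. The differences of pair 1 and pair 2 had a Pearson r of 0.72 across the tested genes, which are not independent replicates. Without the replicate block limma called 1 gene (0.0131%), SYT13, although 288 genes had an unadjusted p under 0.05. Leaving out any 1 of the 4 arrays left between 111 genes (without VHL-restored replicate 2) and 192 genes (without VHL-null replicate 1), with 137 without VHL-null replicate 2 and 172 without VHL-restored replicate 1. Of the 447 genes, 74 were called in each of these 4 fits.

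The genes with the largest higher levels in VHL-null hypoxic cells were led by SYT13, a member of the synaptotagmin family of vesicle proteins. SYT13 read 829 and 1450 in VHL-null cells and 72 and 88 in VHL-restored cells. The groups stood far apart, by 3.51 on the log2 scale (SE 0.145, adjusted p = 0.0003), or 11.4-fold. COXFA4L2, also known as NDUFA4L2, is a mitochondrial protein and a known HIF target. It read 998 and 656 in VHL-null cells against 210 and 163, a difference of 2.01 (SE 0.23, adjusted p = 0.00628). COXFA4L3 is a paralogue, a mitochondrial protein also known as C15orf48. It read 255 and 692 against 49 and 202, a difference of 1.85 (SE 0.215, adjusted p = 0.00659).

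CCND1 encodes cyclin D1, which drives cells out of G1 and is a known target of HIF-2 in renal carcinoma cells. It read 827 and 1315 in VHL-null cells and 224 and 460 in VHL-restored cells, and both VHL-null arrays were above both VHL-restored arrays. The difference was 1.62 (SE 0.113, adjusted p = 0.0012), or 3.07-fold. CA12, a membrane carbonic anhydrase that helps cells export acid, read 686 and 779 against 239 and 256, a difference of 1.47 (SE 0.0648, adjusted p = 0.0003). A dimmer CA12 probe set read 398 and 530 against 96 and 80, a larger difference of 2.17 in the same direction. IFT25, a part of the intraflagellar transport complex, read 213 and 436 against 68 and 135, a difference of 1.48 (SE 0.0835, adjusted p = 0.00088). FABP6, a bile acid binding protein, read 428 and 911 against 152 and 293, a difference of 1.46. SMIM3, a small membrane protein, read 361 and 342 against 122 and 118, a difference of 1.40. ABLIM3, an actin-binding LIM protein, read 613 and 1227 against 224 and 492, a difference of 1.31. The 9 genes from SYT13 to ABLIM3 kept their calls without any 1 of the 4 arrays.

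The calls of 2 more of the 12 largest rested on single arrays. FERMT1, which encodes the integrin activator kindlin-1, read 101 and 255 against 53 and 37, a difference of 1.53 (adjusted p = 0.0476). TNFSF9, the ligand of 4-1BB on T cells, read 235 and 598 against 118 and 165, a difference of 1.30 (adjusted p = 0.024). Both lost the call without replicate 2 of either genotype, with adjusted p up to 0.194 for FERMT1 and up to 0.102 for TNFSF9. RASSF4, a Ras-association protein, read 420 and 604 against 112 and 151 on its brighter probe set, a difference of 1.80 (adjusted p = 0.00111). Its other probe set read 224 and 226 against 224 and 238, a difference of -0.07, so the probe sets disagree and the level of RASSF4 is uncertain.

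**Figure D1:**
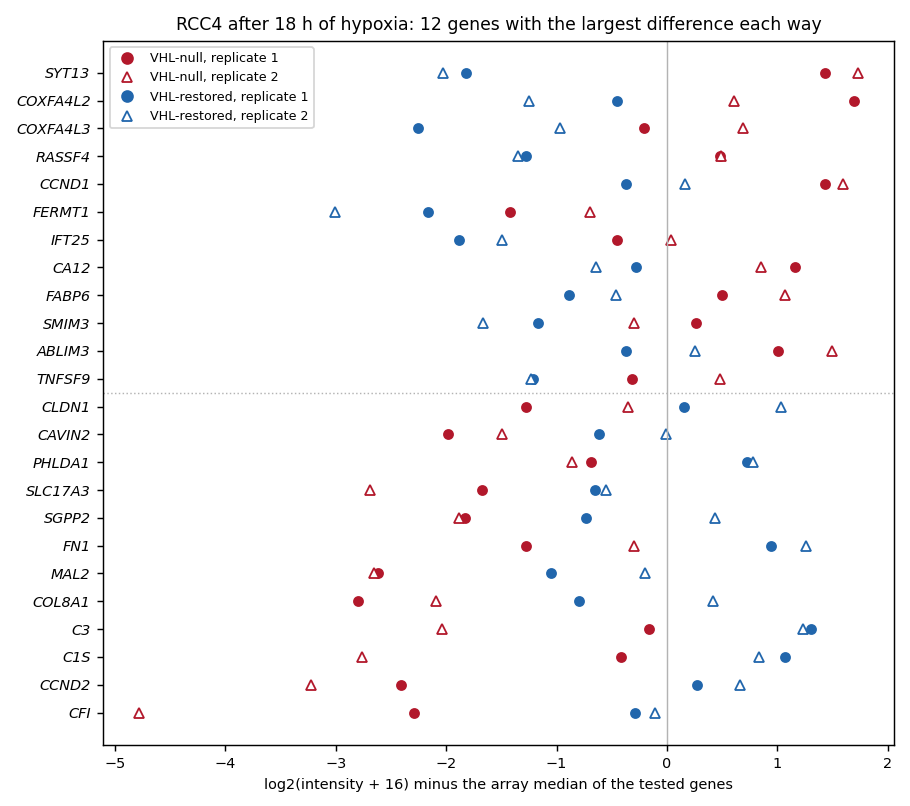
Centred log2 intensity of the 12 genes with the largest higher and the 12 with the largest lower levels in VHL-null cells at 18 h, with 1 point per array, red for VHL-null, blue for VHL-restored, filled circles for replicate 1 and open triangles for replicate 2. SYT13 stands 3.51 higher in VHL-null cells and CCND2 has a difference of -3.28, as means of the pairs, and CFI, C1S and C3 spread more between the VHL-null arrays than between the VHL-restored arrays.

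Among the genes with lower levels in VHL-null cells, CCND2, which encodes cyclin D2, had one of the largest differences. It read 43 and 31 in VHL-null cells and 358 and 658 in VHL-restored cells. The difference was -3.28 (SE 0.299, adjusted p = 0.00302), so that VHL-restored cells held 9.74-fold more. CCND1 and CCND2 thus moved in opposite directions between the same arrays. CCND3, the third D-type cyclin, read 547 and 732 against 576 and 755, a difference of -0.09 (SE 0.0635, adjusted p = 0.553).

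The complement genes CFI, C1S, C3 and C1R were lower in VHL-null cells. Complement factor I, CFI, which cleaves activated C3, was listed at 48 and as null in VHL-null cells and at 238 and 379 in VHL-restored cells. With the null entry taken as 0 its difference was -3.34 (SE 0.576, adjusted p = 0.0215), and both VHL-null arrays were below both VHL-restored arrays. C3, the central complement protein, read 264 and 91 against 750 and 982, a difference of -2.37 (SE 0.438, adjusted p = 0.0265). C1S, the protease of the first complement component, read 218 and 49 against 636 and 744, a difference of -2.54 (SE 0.494, adjusted p = 0.0318), and its partner C1R read 306 and 284 against 432 and 472, a difference of -0.62 (adjusted p = 0.017). In C3 and C1S the difference was larger in pair 2 than in pair 1, at -3.27 against -1.47 for C3 and -3.60 against -1.49 for C1S. SERPING1, the inhibitor of C1R and C1S, had the opposite direction, at 320 and 281 against 193 and 156, a difference of 0.71 (adjusted p = 0.0309). Of 10 tested complement genes, 1 was higher and 4 were lower (3.22% and 2.65% of all tested genes), with a median of -0.16. The same genes were called at 0 h, at -2.85 for CFI, -2.54 for C1S, -2.28 for C3, -0.52 for C1R and 0.76 for SERPING1. None of the 10 had a called interaction. CFI lost its call without VHL-restored replicate 2 (adjusted p = 0.126), and C3 without that array (0.145) or VHL-null replicate 2 (0.083). C1S and C1R were lost without VHL-null replicate 2 or either VHL-restored array, with adjusted p up to 0.177 and 0.103. SERPING1 was lost without any 1 of the 4 arrays, with adjusted p up to 0.186.

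Among genes of the extracellular matrix, 4 were lower and 1 was higher in VHL-null cells. FN1 encodes fibronectin, whose assembly into matrix is a known function of VHL. It read 113 and 341 in VHL-null cells and 579 and 1002 in VHL-restored cells, a difference of -1.89 (SE 0.165, adjusted p = 0.00266), so that VHL-restored cells held 3.71-fold more. A dimmer FN1 probe set read 68 and 111 against 124 and 166, a difference of -0.66 in the same direction. COL8A1, a chain of the short-chain collagen type VIII, read 29 and 87 against 163 and 552, a difference of -2.26 (SE 0.146, adjusted p = 0.000954). TIMP2, an inhibitor of matrix metalloproteinases, read 278 and 436 against 587 and 719, a difference of -0.90 (adjusted p = 0.00631). Of 24 tested matrix and protease genes, these and LAMA5 were lower and COL6A3 was higher (20.8% called, beside 5.87% of all tested genes), with a median of -0.06 against -0.01 for all tested genes. LAMA5, a laminin chain, read 323 and 367 against 437 and 485, and COL6A3, a chain of collagen type VI, 142 and 217 against 100 and 151. Both calls were lost without any 1 array (adjusted p up to 0.102 and 0.129). CCN2, a secreted matricellular protein, read 35 and 354 against 490 and 969, a difference of -2.39 whose adjusted p was 0.0617. The protease gene MMP7 was too dim on average to be tested, and was listed as null on both VHL-null arrays and at 115 and 400 on the VHL-restored arrays.

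Of 11 tested epithelial genes, 2 were lower (18.2% called, beside 5.87% of all tested genes) and none was higher. CLDN1, a tight junction claudin, read 113 and 329 in VHL-null cells against 330 and 855, a difference of -1.41 (SE 0.184, adjusted p = 0.00929). KRT18, a keratin of simple epithelia, read 210 and 465 against 567 and 934, a difference of -1.21 (adjusted p = 0.0154). Its partner KRT8 read 1121 and 1338 against 1310 and 1633, a difference of -0.28 (adjusted p = 0.139). CLDN1 lost its call without VHL-restored replicate 2 (adjusted p = 0.0606), and KRT18 without VHL-null replicate 1 or either VHL-restored array (up to 0.0772). Of the remaining genes among the 12 largest lower, MAL2, a protein of apical transport in epithelia, had -2.01, with 35 and 54 against 134 and 355. SLC17A3, a renal transporter, had -1.58, with 82 and 52 against 181 and 275. SGPP2, a sphingosine-1-phosphate phosphatase, had -1.71. CAVIN2, a coat protein of caveolae, had -1.43. PHLDA1 had -1.53 on its brighter probe set, at 178 and 226 against 496 and 716, and its other probe sets gave -2.37 and -0.92, and -1.09 and 0.11, in pair 1 and pair 2. Single arrays decided the calls of MAL2 (0.0694 without VHL-restored replicate 2) and SGPP2 (0.0579 without VHL-null replicate 2). SLC17A3 was lost without VHL-null replicate 2 or either VHL-restored array, with adjusted p up to 0.186.

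Within the oxygen-sensing pathway, HIF1A, the alpha subunit of HIF-1, was itself lower without VHL. HIF1A read 323 and 516 in VHL-null cells and 653 and 1358 in VHL-restored cells, a difference of -1.21 (SE 0.103, adjusted p = 0.00242). VHL-restored cells held 2.31-fold more HIF1A RNA, and the difference at 0 h was -1.23. CITED2, which competes with HIF alpha for the coactivator CBP/p300, read 226 and 338 against 481 and 652, a difference of -1.01 (SE 0.0682, adjusted p = 0.00111). ELOC, the elongin C subunit that joins VHL to its ligase, read 731 and 1423 against 581 and 1100, a difference of 0.31 (adjusted p = 0.0477), and was lost without any 1 array (up to 0.358). ARNT, the shared partner, read 337 and 481 against 426 and 500, a difference of -0.22 (adjusted p = 0.257). Of 9 tested pathway genes, 1 was higher and 2 were lower (33.3% called, beside 5.87% of all tested genes), with a median of -0.07. The hydroxylase gene EGLN3 was too dim on average over all arrays of the study to be tested. At 18 h it was listed at 132 and 393 in VHL-null cells and as null on both VHL-restored arrays. At 0 h it was listed at 48 and 242 in VHL-null cells, and again as null on both VHL-restored arrays.

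Of 23 tested HIF targets outside glycolysis, 13 were higher in VHL-null cells at 0 h, where 2.82% of all tested genes were. At 18 h, 2 of the 23 were higher and 4 were lower, where 3.22% and 2.65% of all tested genes were. The list median was 0.75 at 0 h and -0.08 at 18 h, beside 0.01 and -0.01 for all tested genes. Of the 13, 10 were not called at 18 h, with differences between -0.28 and 0.26. Of 18 tested genes of glycolysis and glucose use, 7 were higher at 0 h and 1 at 18 h (5.56% called, near the 5.87% of all tested genes), the glucose transporter SLC2A3. The medians were 0.37 and -0.03. SLC2A3 read 290 and 380 against 205 and 237 (0.53, adjusted p = 0.0114) and was lost without VHL-null replicate 2 or either VHL-restored array (up to 0.0932).

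The promoters of 5 genes with different behaviour in hypoxia are shown here because they are well-known HIF targets or carry the 18 h difference. BNIP3, ENO2 and EDN1 were higher in VHL-null cells at 0 h and not at 18 h, and COXFA4L2 was higher at both. CA12 was higher at both times, with a smaller difference at 18 h on its brighter probe set. The 5 genes were picked after the values had been seen. Each run is the 250 bases before the gene's start in RefSeq on GRCh38.p14, read 5′ to 3′ on the gene's strand, with every match to ACGTG or GCGTG on either strand in capitals (CACGT and CACGC are the reverse strand).
BNIP3, chr10:131981924-131982173, minus strand: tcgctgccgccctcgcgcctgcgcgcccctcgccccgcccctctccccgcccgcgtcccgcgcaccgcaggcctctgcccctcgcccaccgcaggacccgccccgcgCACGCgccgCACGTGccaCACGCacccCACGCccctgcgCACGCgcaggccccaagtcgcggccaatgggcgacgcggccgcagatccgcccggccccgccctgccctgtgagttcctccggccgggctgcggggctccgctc
ENO2, chr12:6914330-6914579, plus strand: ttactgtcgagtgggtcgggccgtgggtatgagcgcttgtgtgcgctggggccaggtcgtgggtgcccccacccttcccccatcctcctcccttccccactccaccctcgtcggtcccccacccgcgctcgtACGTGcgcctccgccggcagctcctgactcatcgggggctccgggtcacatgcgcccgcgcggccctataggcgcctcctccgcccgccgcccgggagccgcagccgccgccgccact
EDN1, chr6:12287769-12288018, plus strand: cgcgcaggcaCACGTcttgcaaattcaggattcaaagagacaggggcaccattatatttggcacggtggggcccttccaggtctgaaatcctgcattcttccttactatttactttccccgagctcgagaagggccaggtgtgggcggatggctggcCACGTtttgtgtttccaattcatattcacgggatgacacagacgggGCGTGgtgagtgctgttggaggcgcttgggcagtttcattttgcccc
CA12, chr15:63381847-63382096, minus strand: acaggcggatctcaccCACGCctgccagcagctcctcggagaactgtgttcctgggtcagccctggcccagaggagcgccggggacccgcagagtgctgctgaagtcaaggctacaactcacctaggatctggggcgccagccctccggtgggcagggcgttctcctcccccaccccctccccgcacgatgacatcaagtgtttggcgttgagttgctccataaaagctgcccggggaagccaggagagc
COXFA4L2, chr12:57240763-57241012, minus strand: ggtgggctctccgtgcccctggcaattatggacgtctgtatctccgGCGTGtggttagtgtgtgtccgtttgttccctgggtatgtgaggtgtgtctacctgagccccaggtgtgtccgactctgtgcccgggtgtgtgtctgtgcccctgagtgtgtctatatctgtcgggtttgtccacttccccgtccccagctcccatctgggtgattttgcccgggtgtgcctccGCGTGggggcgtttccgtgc
BNIP3 held 6 matches, of which the pair in CACGTG overlap on opposite strands, and EDN1 held 3, COXFA4L2 2, and ENO2 and CA12 1 each. Over all 27305 RefSeq promoters of this length, 43.1% held a match, and over the tested genes 3426 of 6184 did (55.4%). The share was 57.4% for the genes higher at 18 h (120 of 209) and 54.4% for the genes lower (93 of 171). A match is a description of the letters and not a site.

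The change in the genotype difference between 0 h and 18 h was tested directly with limma's interaction contrast, and 14 of 7614 genes (0.184%) were called, all with a lower difference at 18 h. Of these, 6 were among the 23 HIF targets and 2, ENO2 and PDK1, among the 18 glycolysis genes. ADM encodes adrenomedullin, a vasodilator peptide. ADM read 526 and 842 in VHL-null cells and 516 and 765 in VHL-restored cells at 18 h, and 375 and 524 against 53 and 116 at 0 h. The genotypes stood apart at 0 h, by 2.24, and were level at 18 h, at 0.05, where the VHL-restored arrays had reached the VHL-null range. The interaction was -2.19 (SE 0.183, adjusted p = 0.00978). ENO2, the neuronal enolase of glycolysis, read 921 and 1112 against 909 and 1200 at 18 h and 737 and 942 against 205 and 259 at 0 h, with an interaction of -1.83 (SE 0.0999, adjusted p = 0.0027). BNIP3, a receptor for the removal of mitochondria, read 319 and 523 against 310 and 511 at 18 h and 299 and 506 against 34 and 120 at 0 h. Its interaction was -2.26 (SE 0.278, adjusted p = 0.0481). The BNIP3 intensities of VHL-null cells at 0 h were close to those at 18 h, and those of VHL-restored cells were far below.

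EDN1, which encodes the vessel-constricting peptide endothelin-1, crossed over. EDN1 read 395 and 771 in VHL-null cells against 200 and 351 at 0 h, and 412 and 927 against 709 and 1236 at 18 h. The difference was 0.98 at 0 h and -0.62 at 18 h (adjusted p = 0.0147), with an interaction of -1.60 (SE 0.133, adjusted p = 0.00978). The EDN1 call at 18 h was lost without VHL-null replicate 1 or either VHL-restored array (up to 0.0798). EDN1 was 1 of 4 genes called in opposite directions at the times; the others, DDX41, PPP2R5B and SLC35E1, had small differences of -0.36, -0.40 and -0.37 at 18 h and interactions with adjusted p of 0.079, 0.108 and 0.079, and their 18 h calls were lost without any 1 array (up to 0.298). NRN1, a neuritin, kept a difference of 0.58 at 18 h from 2.49 at 0 h, at 284 and 314 against 197 and 183, and was lost without replicate 2 of either genotype (up to 0.0899). CA12 kept 1.47 of 2.52 on its brighter probe set, with an interaction of -1.05 (SE 0.0916, adjusted p = 0.011). Its dimmer probe set had 2.17 at 18 h, so the size of the CA12 difference at 18 h, and of its narrowing, is uncertain. The interaction for COXFA4L2 was -0.02 with an SE of 0.325, and for CCND1 -0.18 with an SE of 0.16. No interaction was called without the block (49 genes at an unadjusted p under 0.05) or without either VHL-null array at 0 h. Without the other arrays the count was 2 to 18: 2 without VHL-restored 18 h replicate 1, and 6 without replicate 2 of either genotype at 18 h. NDRG1, a HIF-induced gene, read 1489 and 1714 against 1325 and 1658 at 18 h and had an interaction of -1.44 with an adjusted p of 0.251.

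**Figure D2:**
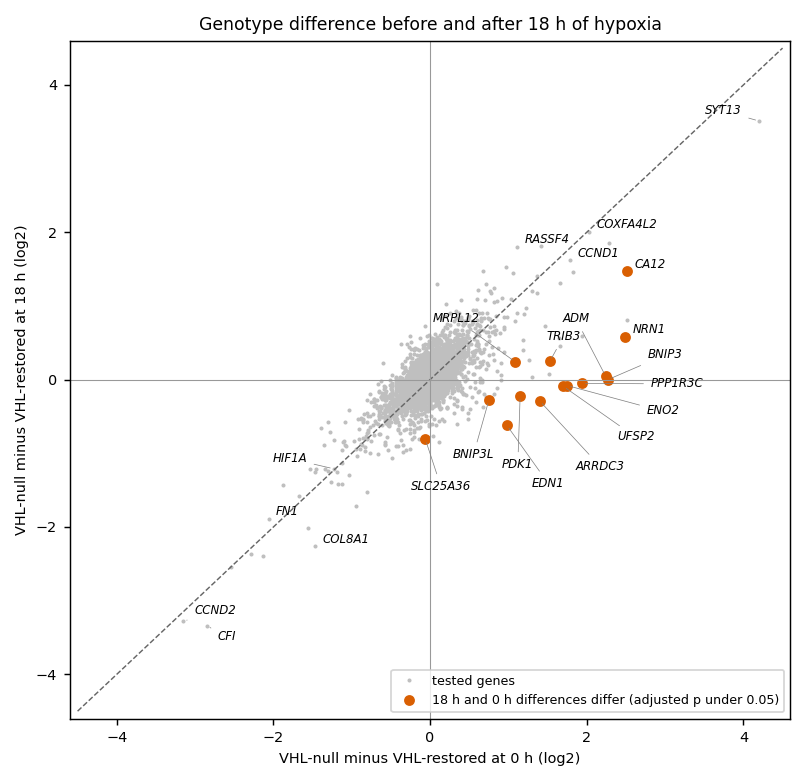
Difference between VHL-null and VHL-restored cells at 0 h (horizontal) and 18 h (vertical) on the log2 scale for each of the 7614 tested genes, with the 14 genes of a called interaction in orange and the dashed line marking equal differences. SYT13, CCND1 and CCND2 lie near the line, and ADM, BNIP3 and ENO2 lie to the right of zero and near zero at 18 h.

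The HIF targets that were called lower in VHL-null cells at 18 h were EDN1, IGFBP3, WSB1 and ERO1A. IGFBP3, a carrier of insulin-like growth factors, read 1454 and 2180 against 2709 and 2729, a difference of -0.64 (adjusted p = 0.0388). WSB1, a ubiquitin ligase adaptor, read 324 and 474 against 508 and 708, a difference of -0.62 (adjusted p = 0.0105). Its other probe sets gave -0.48 and -0.21, in the same direction. ERO1A, the oxidase of disulfide formation in the endoplasmic reticulum, read 364 and 495 against 508 and 802, a difference of -0.60 (adjusted p = 0.0178). IGFBP3 was lost without either VHL-null array or VHL-restored replicate 1 (up to 0.178), ERO1A without replicate 2 of either genotype (up to 0.122), and WSB1 without VHL-null replicate 2 or VHL-restored replicate 1 (up to 0.0708). VEGFA, the main vessel growth factor, was too dim on average over all arrays of the study to be tested. VEGFA was listed at 173 and 278 in VHL-null cells and at 49 and 41 in VHL-restored cells at 18 h, and the VHL-null arrays were higher on both.

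Of 16 tested S phase genes, 6 were called higher in VHL-null hypoxic cells (37.5%, beside 3.22% of all tested genes), none was lower and 10 were not called. All 16 differences were above 0, from 0.04 to 0.91, with a median of 0.47, and the median at 0 h was 0.22. At 0 h, 15 of the 16 were above 0. Of all 7614 tested genes, 3518 were above 0 at 18 h and 4172 at 0 h. PCNA, the sliding clamp of DNA polymerase, read 672 and 1518 in VHL-null cells against 398 and 838, a difference of 0.76 (SE 0.115, adjusted p = 0.0147), and its other probe set gave 0.70. RRM1, the large subunit of ribonucleotide reductase, read 213 and 631 against 123 and 388, a difference of 0.67 (SE 0.0718, adjusted p = 0.00506). FEN1, the flap nuclease, read 576 and 1429 against 285 and 863, a difference of 0.82 (adjusted p = 0.0215). RFC5, a subunit of the clamp loader, read 137 and 279 against 81 and 111, a difference of 0.91 (adjusted p = 0.0388). MCM3 and MCM6 of the replicative helicase had 0.86 and 0.52, and both were lost without any 1 array (up to 0.148 and 0.202). In bulk RNA, more cells in S phase and more RNA per cell cannot be told apart. RRM1 kept its call without any 1 array. PCNA lost it without VHL-null replicate 2 or either VHL-restored array (up to 0.0822), FEN1 without either VHL-null array or VHL-restored replicate 1 (up to 0.0862), and RFC5 without either VHL-null array or VHL-restored replicate 2 (up to 0.202). The count fell to 1 without VHL-null replicate 2 and to 2 without any of the other 3 arrays. At 0 h, 1 of the 16 was called, and no S phase gene had a called interaction.

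Of 15 tested G2/M genes, 1 was called (6.67%, near the 5.87% of all tested genes), KIF20A, a mitotic kinesin, at 399 and 736 against 199 and 447 (0.79, adjusted p = 0.00929), and the list median was 0.05. Of 9 G1 genes, CCND1 and CDKN1A were higher and CCND2 and CDK6 lower (44.4% called, beside 5.87% of all tested genes). CDKN1A, the CDK inhibitor p21 and a p53 target, read 327 and 729 against 213 and 316, a difference of 0.84 (adjusted p = 0.0208). It was lost without VHL-null replicate 2 or either VHL-restored array (up to 0.132). CDK6, a partner of D-type cyclins, read 62 and 362 against 86 and 448, a difference of -0.37 (adjusted p = 0.0461). Another CDK6 probe set gave 0.03, and the call was lost without any 1 array (up to 0.242). Of 15 p53 targets, CDKN1A and DDB2 were higher (13.3% called, beside 5.87% of all tested genes). DDB2, a DNA damage sensor, read 294 and 585 against 194 and 338 (0.63, adjusted p = 0.00694), and was lost without VHL-restored replicate 2 (0.0528).

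Of 17 tested genes of cholesterol and fatty acid synthesis, 4 were called higher (23.5%, beside 3.22% of all tested genes) and none lower, and 13 were not called. In all, 14 had a difference above 0 (16 at 0 h), beside 3518 of all 7614 tested genes at 18 h, and the median was 0.38 (0.25 at 0 h). FADS2, the delta-6 fatty acid desaturase, read 381 and 549 against 174 and 203, a difference of 1.18 (SE 0.135, adjusted p = 0.00628). FADS1, the delta-5 desaturase, read 332 and 569 against 160 and 283, a difference of 0.94 (SE 0.088, adjusted p = 0.00304). EBP, a sterol isomerase, read 689 and 1137 against 346 and 484, a difference of 1.05 (SE 0.096, adjusted p = 0.00302). DHCR7, the last enzyme of cholesterol synthesis, read 446 and 629 against 250 and 314, a difference of 0.85 (SE 0.0939, adjusted p = 0.00575). All 4 were also higher at 0 h, at 0.78, 0.59, 0.81 and 0.49, and all 4 kept the call without any 1 array. At 0 h, 6 of the 17 were called higher, where 2.82% of all tested genes were. SCD had 1.64 at 0 h and 0.57 at 18 h, and INSIG1 0.95 and 0.71, and neither was called at 18 h.

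Of 13 tested genes of chaperones and protein quality control in the endoplasmic reticulum, 3 were called lower (23.1%, beside 2.65% of all tested genes), none higher and 10 were not called. Of the 13, 1 had a difference above 0 (4 at 0 h), beside 3518 of all 7614 tested genes at 18 h. The median was -0.29 (-0.05 at 0 h). HSPA5, the main chaperone BiP, read 278 and 865 in VHL-null cells against 541 and 1331, a difference of -0.80 (SE 0.108, adjusted p = 0.0105). XBP1, a transcription factor of the unfolded protein response, read 211 and 627 against 443 and 888, a difference of -0.78 (SE 0.128, adjusted p = 0.0178). HERPUD1, a part of protein disposal from the reticulum, read 361 and 893 against 610 and 1435, a difference of -0.73 (SE 0.0956, adjusted p = 0.00929). Without VHL-restored replicate 2 none of the 13 was called, and without replicate 1 of that genotype 1 was. None of the 3 was called at 0 h, and none of the 13 had a called interaction. HERPUD1 lost its call without VHL-restored replicate 2 (0.0639). HSPA5 lost it without either VHL-restored array (up to 0.0595), and XBP1 without either of these or VHL-null replicate 1 (up to 0.0867). Of 18 ATF4 stress genes, 1 was called (5.56%, near the 5.87% of all tested genes), CEBPB, at 292 and 601 against 467 and 801 (-0.56, adjusted p = 0.012), and it was lost without VHL-null replicate 1 or either VHL-restored array (up to 0.0823). Among 11 heat shock genes, HSPE1 (0.51) and HSPA9 (0.39), both mitochondrial chaperones, were higher (18.2% called, beside 5.87% of all tested genes). HSPE1 was lost without VHL-null replicate 1 or either VHL-restored array (up to 0.112), and HSPA9 without any 1 array (up to 0.267).

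**Figure D3:**
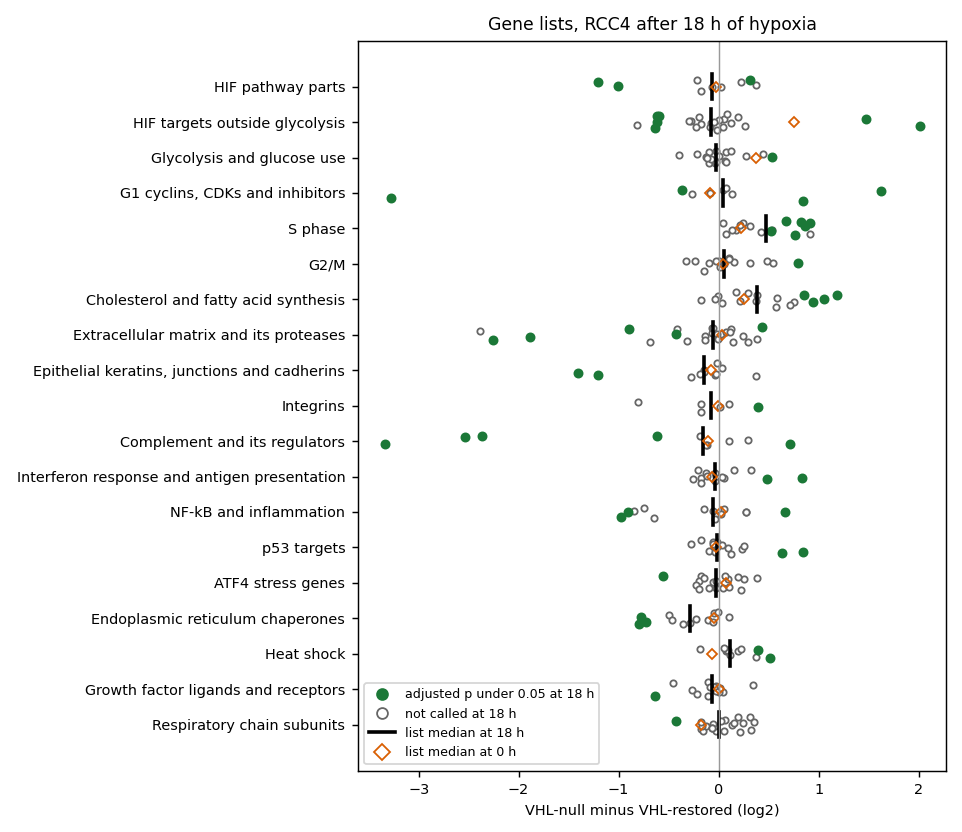
Difference between VHL-null and VHL-restored RCC4 at 18 h on the log2 scale for each tested member of 19 gene lists, green where the adjusted p was under 0.05, with the list median at 18 h as a bar and at 0 h as an orange diamond. The S phase median is 0.47 and the endoplasmic reticulum median -0.29, and for HIF targets the diamond (0.75) and the bar (-0.08) stand apart.

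Inflammatory genes were called in both directions. ICAM1, an adhesion receptor for leukocytes, read 207 and 440 in VHL-null cells against 372 and 966, a difference of -0.98 (SE 0.134, adjusted p = 0.0108), and kept its call without any 1 array. TNFAIP2 read 163 and 280 against 287 and 579, a difference of -0.91 (adjusted p = 0.0123), and was lost without VHL-restored replicate 2 (0.0546). IL6, an inflammatory cytokine, was higher in VHL-null cells in both pairs but differed strongly between array sets, at 34 and 968 against 18 and 536 (0.66, adjusted p = 0.0119). Its call was lost without replicate 2 of either genotype (up to 0.0812). Of 13 NF-kB genes, 1 was higher and 2 were lower (23.1% called, beside 5.87% of all tested genes). Of 15 interferon and antigen presentation genes, IFIT3 and IFI35 were higher and none was lower (13.3% called, beside 5.87% of all tested genes). IFIT3, an interferon-induced protein, read 236 and 369 against 112 and 214, a difference of 0.83 (adjusted p = 0.00349), and kept its call without any 1 array. IFI35 had 0.48 and was lost without any 1 array (up to 0.18).

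The 3 remaining lists held 1 call each. In the order given here, that is 16.7%, 4.55% and 7.14% of their tested members, beside 5.87% of all tested genes. Of 6 integrins, ITGB5 was higher, at 665 and 869 against 464 and 689 (0.39, adjusted p = 0.0388), while its other probe set gave 0.07. Of 22 respiratory chain genes, UQCRC2, a core subunit of complex III, was lower, at 267 and 528 against 358 and 703 (-0.43, adjusted p = 0.0179). Of 14 growth factor ligands and receptors, IGFBP3 was the 1 called, and EGFR, the epidermal growth factor receptor, read 378 and 639 against 483 and 927 (-0.46, adjusted p = 0.135). ITGB5 and UQCRC2 lost their calls without any 1 array, with adjusted p up to 0.212 and 0.145.

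At 0 h, 470 genes were called (6.17%), of which 215 were higher (2.82%) and 255 lower (3.35%) in VHL-null cells. The genes higher at both times numbered 107, which is 43.7% of the 18 h list and 49.8% of the 0 h list. The genes lower at both numbered 130, which is 64.4% of the 18 h list and 51.0% of the 0 h list. Of 206 genes called at 18 h and not at 0 h, 184 had the same sign at 0 h, and 1, SLC25A36, had a called interaction. Of 229 genes called at 0 h and not at 18 h, 10 had a called interaction. So a gene called at 1 time alone was in most cases not shown to differ between the times. At 0 h, SYT13 read 692 and 1327 against 23 and 53 (4.20), CCND1 797 and 1231 against 213 and 337 (1.79), and CCND2 55 and 50 against 445 and 754 (-3.15). FN1 at 0 h had -2.06 and COL8A1 -1.47.

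The 6 other RCC4 genotype pairs, 1 pair of arrays each, were not in the fit that called the 18 h genes, though they come from the same lines and took part in the choice of probe sets and tested genes by mean intensity. They were taken at 1, 2, 4 and 6 h of hypoxia and after 1 h and 4 h of reoxygenation following 18 h. The 245 higher genes were positive in 224 (2 h) to 242 (1 h of hypoxia and 1 h of reoxygenation) of the genes per pair, that is in 91.4% to 98.8%, where 38.8% to 52.1% of all tested genes were positive. The 202 lower genes were negative in 175 (4 h of reoxygenation) to 198 (1 h), that is in 86.6% to 98.0%, where 47.9% to 61.2% of all tested genes were negative. In all 6 pairs, 212 of the 245 (86.5%) were positive, beside 928 of all 7614 (12.2%). For the lower genes it was 153 of 202 (75.7%), beside 1221 of 7614. SYT13 ranged from 3.45 to 4.30 over the 6 pairs, CCND1 from 1.36 to 1.77, COXFA4L2 from 1.41 to 2.33, HIF1A from -1.49 to -0.90, FN1 from -2.61 to -1.47 and CCND2 from -4.57 to -2.76. None of the 6 genes changed sign in any pair.

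In the same pairs the genes with a called interaction did not follow the order of the times. ENO2 had -0.36 at 1 h, 1.30 at 2 h, -0.45 at 4 h and 0.37 at 6 h, beside 1.75 at 0 h and -0.08 at 18 h. ADM had -0.32, 0.27, -0.54 and 0.40 at these times, and 0.74 and 1.15 after 1 h and 4 h of reoxygenation. NRN1 had -0.02, 1.96, -0.18 and 1.45. By the array-set assignment, which the titles do not hold, the arrays at 1 h and 4 h fell in the array set of replicate 2. Those at 2 h and 6 h were placed in that of replicate 1, although the titles number all of these single arrays as replicate 1. For these single arrays, time and array set cannot be told apart. Both sets were measured at 0 h and at 18 h. At 0 h the differences in pair 1 and pair 2 were 1.80 and 1.71 for ENO2, 2.53 and 1.94 for ADM, and 2.59 and 2.39 for NRN1. At 18 h they were 0.00 and -0.16, 0.01 and 0.09, and 0.48 and 0.68.

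**Figure D4:**
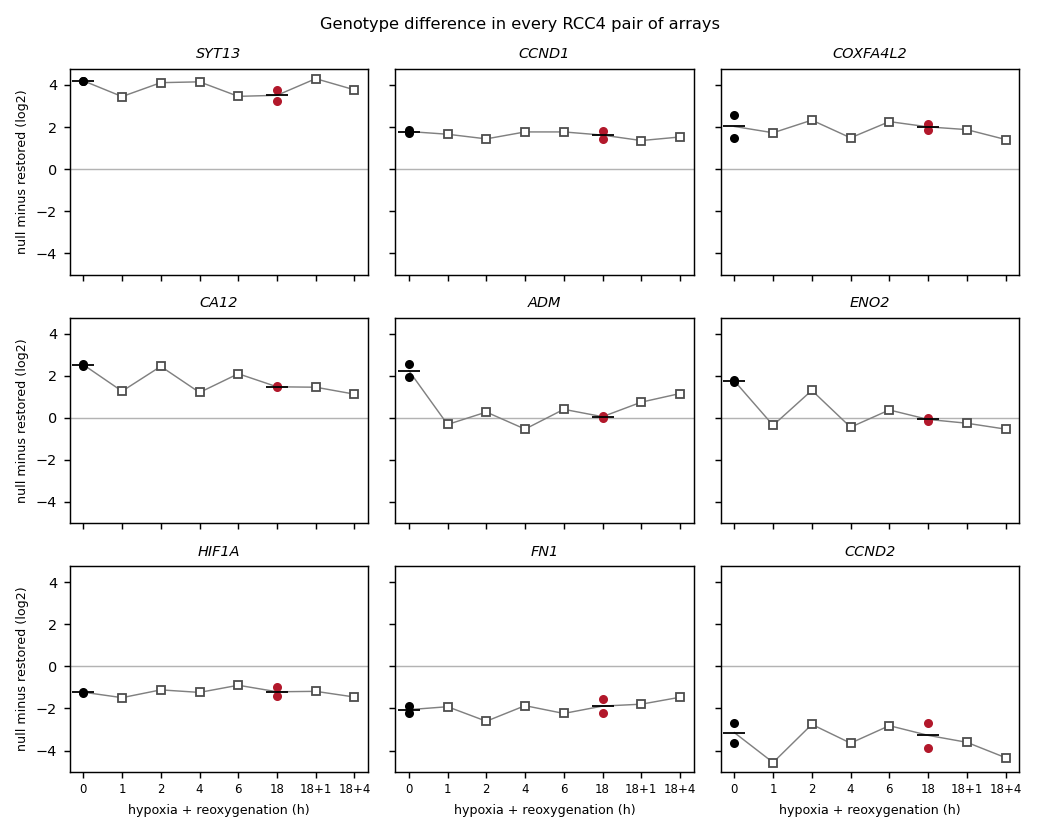
Difference between VHL-null and VHL-restored RCC4 on the log2 scale for 9 genes over hours of hypoxia, with hours of reoxygenation after the plus sign; filled circles are the 2 replicate pairs at 0 h (black) and 18 h (red), short bars their means, and open squares single pairs of arrays. SYT13, CCND1 and COXFA4L2 stay above 0 and HIF1A, FN1 and CCND2 below 0 at every time, while ADM and ENO2 stand above 0 at 0 h and near 0 at 18 h.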

How the data were processed

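RNA from the RCC4 cells was measured on a custom Affymetrix array. The values are the intensity of each of 35409 probe sets as the authors deposited it, in whole numbers; how they were summarised and scaled is not given in the sources used here. Null entries, whose meaning is not stated, were taken as 0. The deposited values had no log applied. Platform annotation named 1 gene for 16905 probe sets, several for 573 and none for 17931; symbols were updated to RefSeq. Each gene was read from its brightest probe set by the mean over 30 arrays, and the brightest 60% of 12690 genes were tested (7614). The intensities were turned into log2(intensity + 16) and centred on the median of the tested genes, because the median of all genes moves with the null entries (11.3% to 21.2% of genes per array); the all-gene median was an alternative.

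limma 3.58.1 in R 4.3.3 was fitted to the 8 RCC4 arrays at 0 h and 18 h, with a mean per group and the replicate number as a block (3 residual and 4.01 prior degrees of freedom). Adjusted p-values are Benjamini-Hochberg over 7614 genes, two-sided, called under 0.05. The comparison was defined as paired by replicate number. In the arrays, same-numbered samples deviated together from their group means, with correlations of 0.799 to 0.921 over the 6 pairs of groups, and the number equals the array set. The number of arrays limits the precision, and levels of different probe sets were not compared. The scripts were tested on simulated data.

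The text names the 12 largest differences each way among called genes with the same direction in both pairs, up to 4 members per gene list by limma's statistic, the 10 strongest interactions, and VHL, HIF1A, EPAS1, ARNT, VEGFA, EGLN3, NDRG1 and the D-type cyclins; EPAS1 was not matched and is not analysed here. Genes named beyond the rule (BNIP3 and 3 more with a called interaction, the genes of opposite direction, further list members) were chosen after their values were seen. The genes compared, the 19 lists and the marker lists were chosen with earlier results of these data known. A pair of alternatives were added after seeing the data: centring on all genes, and the filter by the mean over the 8 arrays.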

Additional observations from a re-analysis of the deposited data

Results flagged for a closer look

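For 14 genes the difference between VHL-null and VHL-restored cells at 18 h differed from that at 0 h by limma's interaction test, each with a lower difference at 18 h. As log2 values of the 18 h difference minus the 0 h difference, they were -2.26 for BNIP3, -2.19 for ADM, -1.99 for PPP1R3C, a regulator of glycogen synthesis, -1.91 for NRN1 and -1.83 for ENO2. UFSP2, a protease of the ufmylation system, had -1.80, ARRDC3, an arrestin-like protein, -1.68 and EDN1 -1.60. PDK1, a kinase that inhibits pyruvate dehydrogenase, had -1.37. TRIB3, a stress pseudokinase, had -1.28, CA12 -1.05, BNIP3L, the paralogue of BNIP3, -1.03, MRPL12, a mitochondrial ribosomal protein, -0.85 and SLC25A36, a mitochondrial nucleotide carrier, -0.75. The adjusted p-values ran from 0.0027 (ENO2) to 0.0481 (BNIP3, BNIP3L, MRPL12 and SLC25A36). A second UFSP2 probe set gave 0.31 at 18 h, with pairs at -0.01 and 0.63. Another PDK1 probe set gave -0.07 at 18 h, with pairs of opposite sign at -0.42 and 0.27. A second CA12 probe set gave 2.17 at 18 h, with pairs at 1.87 and 2.46. SLC25A36 was the exception in level at 0 h, with -0.06 at 0 h and -0.81 at 18 h, whereas the other 13 were higher in VHL-null cells at 0 h. Of the 13 genes with a RefSeq promoter, 9 held ACGTG or GCGTG (69.2%, beside 55.4% of the tested genes).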

How the results depend on the processing

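The count of genes called at 18 h was within 1.5 times of 447 with the 75th percentile (353), the all-gene median (592), the filter by 8 arrays (462), the mean of the probe sets (426), quantile normalization (380), pseudocounts of 4 (427) and 64 (497), the brightest 40% of genes (379), an intensity trend in the prior (630) and the 4 arrays at 18 h alone (457). It was 241 with no centring, 152 over genes with no null entry, 74 with no filter on dim genes and 1 with no replicate block. Leaving out 1 array gave 111 to 615. The count at 0 h was 268 with no centring, 185 over genes with no null entry, 85 with no filter and 10 with no replicate block, and 56 to 443 without 1 array. The 14 interactions became 6 with the 75th percentile, 38 with the all-gene median, 9 with the filter by 8 arrays, 8 with the mean of the probe sets, 5 with no centring, 22 with the trend, 6 and 22 with pseudocounts of 4 and 64, and 0 over genes with no null entry, with no filter or with no replicate block. Without 1 array they were 0 to 18. The causes were not tested. The arrays were centred in that fit too, and with no block each gene's difference between replicate 1 and replicate 2 counts as spread. Of 62 named genes called at 18 h, 26 kept the call without each of the 4 arrays at 18 h, and none that was called changed direction under any setting. Genes dim on average, among them VHL, VEGFA and EGLN3, were left out of the main fit by the filter on mean intensity. That mean was taken over all arrays of the study, which include other cell lines. It is not a measure of signal over background in the RCC4 arrays at 18 h.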
